A study of Rattus norvegicus with 8 samples.

Results

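The Mediator complex is described here through the 34 protein-coding gene models, of 34298 in the deposited count table, whose symbol is Med followed by a number (with or without a final l) or is Ccnc, Cdk8 or Cdk19. They carry 33 symbols, because 2 models are named Med22. RNA came from the orbitofrontal cortex of male Sprague-Dawley rats (outbred, adult, 8 weeks old on arrival) and was sampled 7 days after local infusion of siRNA with JetPEI, a polymer that carries nucleic acids into cells. All animals received 5 ng of siRNA in 1 µl. In 4 animals (replicates 1 to 4) the siRNA was directed at the junction that closes circNrxn3, the circular RNA of the neurexin 3 gene, and in 4 animals (replicates 1, 3, 4 and 5) it was a scrambled control. The labels do not state what share of cells took up the siRNA. Beside the label of cortex, 5 genes of cortical excitatory neurons were read, such as Slc17a7 and Tbr1. All 5 were detected, with a summed level of 1944 to 2450.4 CPM (depth-scaled counts, with TMM library sizes) in circNrxn3 siRNA and 2238 to 2759.8 CPM in scrambled libraries. The 4 striatal neuron markers summed to 186 to 294 CPM in circNrxn3 siRNA and 209 to 328 CPM in scrambled libraries. Detection of such genes cannot tell how exactly the region was cut.

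Mediator is a large assembly that bridges transcription factors on enhancers and RNA polymerase II at promoters. Its head and middle modules contact the polymerase, its tail module is bound by many activators, and Med14 is the backbone that joins them. A separable kinase module, made of Cdk8 or Cdk19 with cyclin C, Med12 or Med12l and Med13 or Med13l, binds the core reversibly and blocks its contact with the polymerase while bound. In neurons Mediator takes part in stimulus-dependent transcription, and mutations of several human subunit genes, among them MED12, MED13L and CDK19, cause neurodevelopmental disorders.

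The siRNA strands are shown because they define the groups, with bases 2 to 8 of the antisense strand, the part that pairs first with a target, in capitals. Both are written 5′ to 3′ as the labels give them.
antisense strand of the circNrxn3 siRNA: uUCCUGUCuagccuuuggauu
sense strand of the circNrxn3 siRNA: uccaaaggcuagacaggaauu

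Promoter windows of 250 bases before to 50 after the annotated start were available from RefSeq (build GRCr8) for 28 of the 33 symbols. Those of Med22, Ccnc and Med16 are printed because these 3 genes were the members whose values did not overlap between the groups. Capitals mark every match, on either strand, to any of 4 motifs. TATAAA is the sequence of the TATA box, counted here at any position in the window. Factors of the Sp1 type bind GGGCGG. The motif CCGGAAG is known from sites of ETS factors, and YY1 sites hold AAGATGG.
Med22 promoter, GRCr8 chr3:30636862-30637161, minus strand: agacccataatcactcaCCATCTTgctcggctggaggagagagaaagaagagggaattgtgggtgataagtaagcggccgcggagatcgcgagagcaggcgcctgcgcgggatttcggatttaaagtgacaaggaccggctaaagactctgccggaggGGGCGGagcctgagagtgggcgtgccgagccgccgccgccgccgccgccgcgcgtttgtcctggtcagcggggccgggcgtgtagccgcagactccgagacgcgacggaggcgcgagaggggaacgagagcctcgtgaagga
Ccnc promoter, GRCr8 chr5:40063433-40063732, plus strand: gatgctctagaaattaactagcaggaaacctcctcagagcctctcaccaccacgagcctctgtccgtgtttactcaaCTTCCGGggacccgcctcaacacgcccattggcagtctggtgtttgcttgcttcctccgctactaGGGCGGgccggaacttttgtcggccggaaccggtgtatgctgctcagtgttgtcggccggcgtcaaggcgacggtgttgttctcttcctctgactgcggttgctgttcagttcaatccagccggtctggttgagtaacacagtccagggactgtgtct
Med16 promoter, GRCr8 chr7:10449049-10449348, plus strand: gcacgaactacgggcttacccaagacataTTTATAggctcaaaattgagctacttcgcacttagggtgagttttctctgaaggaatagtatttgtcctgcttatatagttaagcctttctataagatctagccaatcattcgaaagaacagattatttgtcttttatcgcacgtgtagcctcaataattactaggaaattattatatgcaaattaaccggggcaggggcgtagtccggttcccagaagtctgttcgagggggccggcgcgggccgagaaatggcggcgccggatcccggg

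Mediator promoters were richer in G and C than promoters at large and seldom held TATAAA. The 29 member windows (Med12l has 2) had a median GC content of 58.7%, against 51.7% over all 33469 windows, and ran from 35.7% at Med12l to 80.0% at Med13l. GGGCGG occurred in 21 of 29 member windows (72.4%) and in 33.1% of all windows. TATAAA occurred at Med16 alone of the members (3.45%), against 14.2% of all windows. CCGGAAG was found in 6 member windows (20.7%, against 8.75% of all) and AAGATGG in 4 (13.8%, against 7.01%). These are matches of letters in windows that differ in GC content, not measured binding sites. The Med22 window shares 276 of its bases with the window of Rpl7a, a ribosomal protein gene that runs the other way from the same promoter region.

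Total counts were 28219271 to 35221782 in circNrxn3 siRNA and 27589883 to 35191810 in scrambled libraries. Nrxn3, the host gene, had 430, 381, 82 and 268 counts in circNrxn3 siRNA replicates 1 to 4, against 344, 114, 216 and 261 in scrambled replicates 1, 3, 4 and 5. Its log2 fold change was 0.20 (standard error, SE, 0.48, edgeR adjusted p = 0.948). The libraries were poly-A selected, so these counts hold mainly linear mRNA and do not check the circle. Libraries differed in how long transcripts fared. To compare libraries, the log2 level of each gene was centred on its mean over all libraries. The centred median of genes longer than 3485 bp minus that of genes shorter than 1373 bp was then taken, with members left out. It was 0.15, 0.20, −0.07 and 0.0062 in circNrxn3 siRNA replicates 1 to 4, against 0.07, −0.16, −0.19 and −0.03 in scrambled replicates 1, 3, 4 and 5. Scrambled replicates 3 and 4 and circNrxn3 siRNA replicate 3 were thus the 3 lowest. In bulk tissue, fewer cells that express a gene and less RNA per cell cannot be told apart.

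Levels of different genes were compared as FPKM, the deposited values, which scale counts by gene model length and library depth. All members but 1 Med22 model were read in this cortex. Of the 33 with counts, 22 had a mean over the 8 libraries of at least 10 FPKM, 9 lay between 1 and 10 FPKM, and 2 were under 1 FPKM. The median was 15.5 FPKM, and the highest mean was 184 times the lowest.

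The 3 highest members were Med25, Med10 and Med29. Med25, a tail subunit with an activator-binding domain (ENSRNOG00000020363, chromosome 1, 100874976 to 100887853, rn6), was at 69.6 ± 5.69 FPKM in circNrxn3 siRNA and 84.9 ± 8.77 FPKM in scrambled libraries (SD, n = 4 each). Med10, a middle subunit (chromosome 1, 36107232 to 36112993), was at 55.1 ± 7.03 FPKM in circNrxn3 siRNA and 57.8 ± 6.89 FPKM in scrambled libraries. Med29, which lies where head and tail meet in animals, was at 32.8 ± 4.87 FPKM in circNrxn3 siRNA and 33.2 ± 6.25 FPKM in scrambled libraries. Over all 8 libraries Med25 ranged from 65.0 to 96.1 FPKM and Med10 from 47.5 to 65.8 FPKM, so these neighbours in the order overlapped slightly, while Med29, with at most 40.6 FPKM, lay below every Med10 value.

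The 3 lowest members by mean level were Med12l, Med1 and Med13. Med12l, the paralog of the kinase-module subunit Med12 (chromosome 2, 149213134 to 149532292), was at 0.399 ± 0.136 FPKM in circNrxn3 siRNA and 0.440 ± 0.117 FPKM in scrambled libraries. Med1, the middle subunit that binds nuclear receptors (chromosome 10, 86103600 to 86144880), was at 0.964 ± 0.419 FPKM in circNrxn3 siRNA and 0.700 ± 0.356 FPKM in scrambled libraries. Med13, the kinase-module subunit paralogous to Med13l (chromosome 10, 73702327 to 73787083), was at 1.06 ± 0.192 FPKM in circNrxn3 siRNA and 0.989 ± 0.238 FPKM in scrambled libraries (SD, n = 4 each). The ranges of Med12l, Med1 and Med13 overlapped in turn, so their order is not larger than the spread between libraries. Med22 came next by mean, at 1.55 FPKM, with the highest ratio of its highest to its lowest library of any member.

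**Figure D1:**
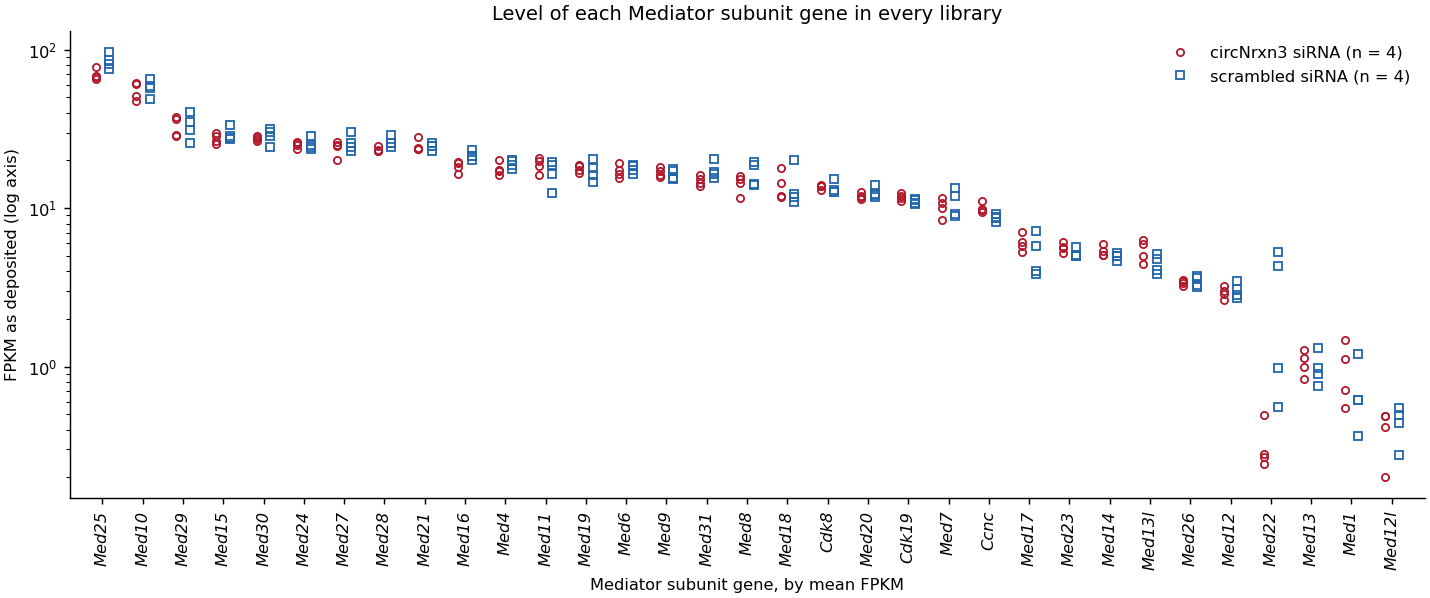
FPKM as deposited, on a log axis, of the 33 Mediator gene models with counts, ordered by mean; circles are the 4 circNrxn3 siRNA and squares the 4 scrambled libraries. Of the members, 22 average at least 10 FPKM, and the groups are mixed for most, whereas the Med22 squares spread from 0.558 to 5.27 FPKM above all 4 circles.

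No Mediator member passed the test between the groups. The edgeR quasi-likelihood test, adjusted by Benjamini-Hochberg over the 16573 genes tested, called 0 of the 33 members tested and 0 of all genes (0%), with an adjusted p of at least 0.833. At an unadjusted p under 0.05 stood 1 member at higher (Ccnc) and 3 at lower levels (Med22, Med25 and Med16) in circNrxn3 siRNA libraries (12.1% of members in all), where 5.59% of all genes had such a p, 2.38% higher and 3.2% lower. There was no overlap between the groups for 3 members (9.09%), against 3.48% of all genes. These are only 4 and 3 genes, and the p-values set the group difference against the spread between the animals of a group. The median log2 fold change over the members was −0.01, with 14 of 33 above 0, and over all genes tested it was 0.0066, with 51.3% above 0. Apart from Med22 and Med1, the members had log2 fold changes of less than 0.3 in size. Limma-voom also called 0 members. DESeq2 gave an adjusted p for 7 members, among them Med25 and Med16, and called 0 of these; the other 26, among them Med22, Ccnc and Med13l, got none. The summed level of the 5 red blood cell marker models found was 359 to 759 CPM in circNrxn3 siRNA and 607 to 2438 CPM in scrambled libraries, and the part of blood in the member values was not tested.

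**Figure D2:**
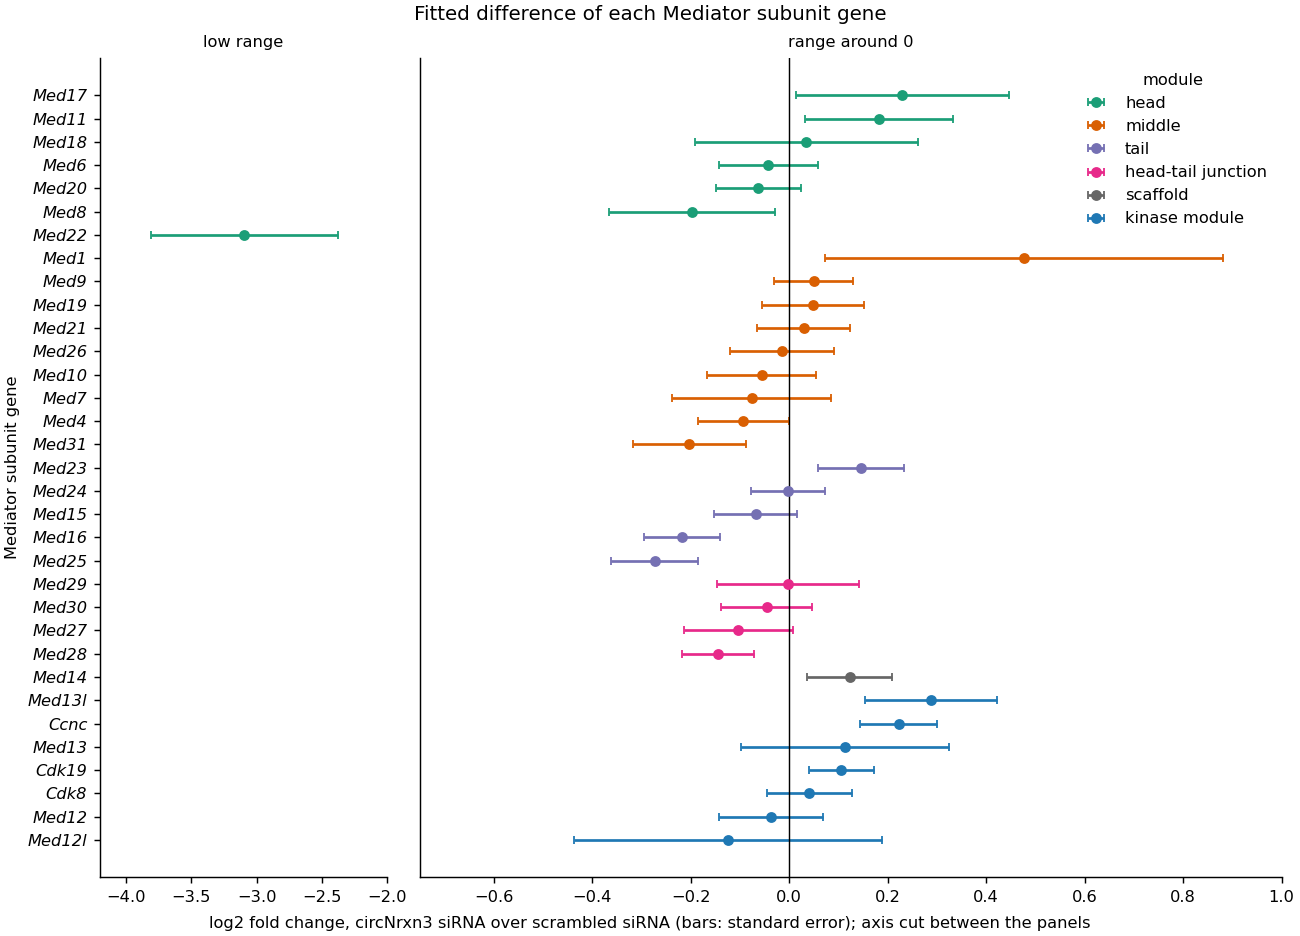
Log2 fold change of circNrxn3 siRNA over scrambled siRNA for each of the 33 tested Mediator genes, from the edgeR fit; points are estimates, bars 1 standard error and colours the modules. The axis is split and its scale differs between the panels, because Med22 lies at −3.09 and all other members between −0.27 and 0.48.

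In the head module, the part of the core that docks on the polymerase, Med22 had the lowest value and the other 6 members had log2 fold changes of −0.20 to 0.23. Med22 forms a heterodimer with Med11 in yeast and in animals. The model with reads (ENSRNOG00000005059, chromosome 3, 4861753 to 4866833, minus strand) had 14, 10, 10 and 21 counts in circNrxn3 siRNA replicates 1 to 4, against 199, 44, 25 and 169 in scrambled replicates 1, 3, 4 and 5. The other Med22 model (ENSRNOG00000049749, chromosome 3, 5453614 to 5458782, minus strand), which starts 591861 bp further on, had 0 counts in all 8 libraries. A count of 0 allows up to 3 counts, or 0.0811 to 0.108 CPM per library, which covers counting error only. The sum of both models therefore equals the counts of the first, which as CPM were 0.378, 0.326, 0.360 and 0.662 in circNrxn3 siRNA libraries, against 7.12, 1.31, 0.745 and 5.74 in scrambled libraries.

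All 4 circNrxn3 siRNA values of Med22 lay below all 4 scrambled values, but scrambled replicate 4 stood only just above circNrxn3 siRNA replicate 4. Scrambled replicates 1 and 5 carried most of the difference. The log2 fold change was −3.09 (SE 0.72, edgeR adjusted p = 0.833), and the fit with both models summed gave the same value. On the log2(FPKM + 1) scale, which compresses low values, it was −1.27 (limma adjusted p = 0.777). Leaving out the 3 libraries lowest in long transcripts, a choice made after the data were seen that removes the 2 lowest scrambled values of Med22, gave −3.81 (edgeR adjusted p = 0.0366). Per length, Med22 was at 0.320 ± 0.116 FPKM in circNrxn3 siRNA and 2.78 ± 2.36 FPKM in scrambled libraries, while its partner Med11 was at 18.8 ± 1.92 FPKM in circNrxn3 siRNA and 16.8 ± 3.20 FPKM in scrambled libraries (SD, n = 4 each).

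The 2 Med22 models lie in segments of rn6 chromosome 3 that hold similar sets of gene models. In each, an Rpl7a model of 798 bp starts 399 bp (first segment) or 377 bp (second segment) beyond Med22 on the other strand. A model of 1158 bp follows in each, LOC100912042 in the first segment and Surf2 in the second. The RefSeq annotation of GRCr8 lists 1 Med22. Reads that match 2 copies equally may be dropped or split in counting, and the sources used here do not give how they were treated, so the level of Med22 is uncertain.

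Other models of this locus also varied widely between animals, in both groups. LOC100912042 had 70, 33, 25 and 585 counts in circNrxn3 siRNA replicates 1 to 4, against 371, 114, 229 and 37 in scrambled replicates 1, 3, 4 and 5, while Surf2 had 0 in every library. LOC100912008, whose model overlaps its start, had 281, 562, 23 and 548 counts in circNrxn3 siRNA, against 870, 284, 214 and 61 in scrambled libraries. The groups overlapped for both, with log2 fold changes of −0.15 and −0.12 and standard errors of 1.13 and 1.02. The highest library stood 20.5 times above the lowest for LOC100912042, 37.6 times for LOC100912008 and 21.8 times for Med22. The Rpl7a model of the first segment varied by 1.45 times over the 8 libraries. That of the second had 306, 222, 288 and 233 counts in circNrxn3 siRNA, against 228, 280, 1518 and 283 in scrambled libraries, so scrambled replicate 4 was far above the rest. Surf6, which lies beside the second Med22 model, ranged from 19.1 to 22.3 CPM. The part of the locus in the Med22 result was not tested.

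**Figure D3:**
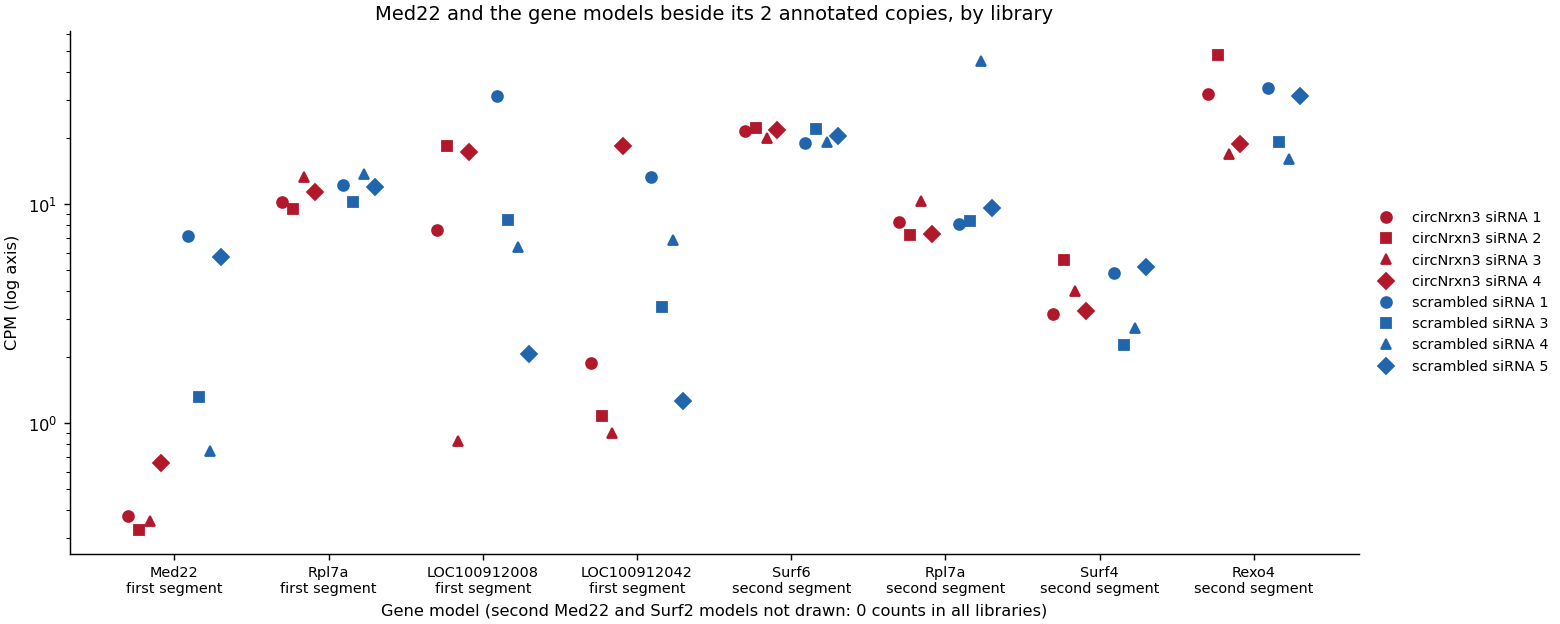
CPM on a log axis of Med22 and the gene models next to its annotated copies, 1 marker per library (red, circNrxn3 siRNA; blue, scrambled). Med22, LOC100912008, LOC100912042 and the second Rpl7a model each have libraries that stand far apart, while Surf6 and the first Rpl7a model stay within 1.17 and 1.45 times.

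None of the other head subunits passed the test. Med17, the scaffold of the head, had a log2 fold change of 0.23 (SE 0.22), and Med11 0.18 (SE 0.15). Med8, which helps hold Med18 and Med20, had −0.20 (SE 0.17). Med18, Med6 and Med20 had 0.03, −0.04 and −0.06. Over the 7 tested head models the median was −0.04, with 3 above 0.

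The tail module, which receives activators, held 2 of the 3 lowest p-values at lower levels, those of Med25 and Med16, and Med23 among the 3 lowest at higher levels. Med25 was at 154, 159, 183 and 160 CPM in circNrxn3 siRNA replicates 1 to 4, against 178, 223, 202 and 190 CPM in scrambled replicates 1, 3, 4 and 5. The groups overlapped by circNrxn3 siRNA replicate 3 and scrambled replicate 1 alone. The log2 fold change was −0.27 (SE 0.09, edgeR adjusted p = 0.833).

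Med16, a tail subunit (ENSRNOG00000011315, chromosome 7, 12542713 to 12632298), was at 64.2, 76.2, 75.6 and 71.0 CPM in circNrxn3 siRNA libraries, against 78.6, 89.9, 82.1 and 83.2 CPM in scrambled libraries. Every circNrxn3 siRNA value lay below every scrambled value, and the log2 fold change was −0.22 (SE 0.08, edgeR adjusted p = 0.833). The rn6 model of Med16 overlaps those of several other genes, among them R3hdm4 on the same strand, and reads in shared stretches may not be told apart. R3hdm4 was more abundant, at 304 ± 42.6 CPM in circNrxn3 siRNA and 368 ± 37.3 CPM in scrambled libraries (SD, n = 4 each), with a log2 fold change of −0.27 and a standard error of 0.11. Its part in the Med16 value was not tested.

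Med23, a tail subunit needed for signals through MAP kinase and the factor Elk1, had 29.5, 27.4, 27.0 and 24.8 CPM in circNrxn3 siRNA libraries, against 27.0, 23.4, 23.5 and 24.2 CPM in scrambled libraries. The groups overlapped, and the log2 fold change was 0.15 (SE 0.09, edgeR adjusted p = 0.833). Med15, the subunit that many activators bind, had −0.07 and Med24 −0.0024. The 5 tail genes together summed to 419 to 463 CPM in circNrxn3 siRNA and 462 to 542 CPM in scrambled libraries, and Med25 and Med16 made up most of that gap. The summed level of 5 astrocyte markers, all detected, was 842 to 1126 CPM in circNrxn3 siRNA and 1011 to 1353 CPM in scrambled libraries. Its part in the tail values was not tested.

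In the middle module Med1 had the highest value, a log2 fold change of 0.48 (SE 0.40), and the other 8 members lay between −0.20 and 0.05. Over the 9 middle members the median log2 fold change was −0.01, with 4 above 0. Med31 had −0.20 (SE 0.11), Med4 −0.09, Med7 −0.08 and Med10 −0.06. Med26, which recruits elongation factors, had −0.01, and Med21, Med19 and Med9 had 0.03, 0.05 and 0.05. Med19 overlaps Tmx2 on the other strand, which had 0.25 (SE 0.09). Med28, Med27, Med30 and Med29 had −0.15, −0.10, −0.05 and −0.0023. The backbone subunit Med14 had 0.12 (SE 0.09).

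In the kinase module 5 of 7 members lay above 0, with a median log2 fold change of 0.11, and 0 passed the test. Ccnc, which encodes cyclin C, the partner of both kinases (ENSRNOG00000007719, chromosome 5, 35865605 to 35883706), was at 37.8, 33.9, 33.0 and 32.0 CPM in circNrxn3 siRNA replicates 1 to 4, against 27.7, 30.7, 29.4 and 29.4 CPM in scrambled replicates 1, 3, 4 and 5. All 4 circNrxn3 siRNA values were above all 4 scrambled values. The log2 fold change was 0.22 (SE 0.08, edgeR adjusted p = 0.833).

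Med13l, which links the kinase to the core (ENSRNOG00000001120, chromosome 12, 43421308 to 43576804), was at 56.0, 59.6, 41.8 and 46.9 CPM in circNrxn3 siRNA libraries, against 48.7, 35.7, 37.9 and 45.1 CPM in scrambled libraries. The groups overlapped, the log2 fold change was 0.29 (SE 0.13, edgeR adjusted p = 0.833), and the lowest value of each group came from a library low in long transcripts. Med13 had 0.11 (SE 0.21), Cdk19 0.11 (SE 0.07) and Cdk8 0.04 (SE 0.09). Med12 had −0.04 and Med12l −0.12, with standard errors of 0.11 and 0.31. The module summed to 197 to 227 CPM in circNrxn3 siRNA and 180 to 202 CPM in scrambled libraries. Med12, Med12l, Med13, Med13l and Cdk19 have models of at least 4000 bp and are also among the long members described below. After correction of each library for transcript length, Cdk19 had 0.0285 in place of 0.11 and Ccnc 0.15 in place of 0.22. Med13l had 0.2124 to 0.295 over this correction and the other alternatives that did not leave out 1 library. The part of transcript length in the values of this module was not tested beyond the length correction.

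The paralogs of the kinase module replace each other in the complex, so the ratio of each pair was compared within libraries. Per length, Cdk19 stood at 0.841 times Cdk8, Med13l at 4.81 times Med13 and Med12l at 0.140 times Med12, as ratios of mean FPKM over the 8 libraries. The rn6 models may not cover all exons of a gene, which limits these ratios between genes and less so the comparison of groups. On counts, the log2 ratio of Cdk19 to Cdk8 was 1.46 ± 0.09 in circNrxn3 siRNA and 1.40 ± 0.09 in scrambled libraries (SD, n = 4 each, 2-sided exact permutation p = 0.400). That of Med13l to Med13 was 2.76 ± 0.11 in circNrxn3 siRNA and 2.60 ± 0.20 in scrambled libraries (exact permutation p = 0.229). That of Med12l to Med12 was −2.50 ± 0.69 in circNrxn3 siRNA and −2.37 ± 0.39 in scrambled libraries (exact permutation p = 0.800). Adjusted over the 3 pairs these p-values were 0.600, 0.600 and 0.800, where the design allows no p below 0.0286. The last difference, −0.13, turned to 0.21 without circNrxn3 siRNA replicate 3, which alone held a ratio of −3.53, and to 0.016 without scrambled replicate 1.

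The members that varied most among animals had long and short gene models, and values of some long ones followed the libraries' representation of long transcripts. The SD within groups on the log2 scale was largest for Med22 (1.17), Med1 (0.68), Med12l (0.53), Med18 (0.35) and Med17 (0.34) and smallest for Cdk19 (0.06), and its median was 0.13. Med1 was at 6.62, 8.72, 3.20 and 4.19 CPM in circNrxn3 siRNA replicates 1 to 4, against 7.08, 3.58, 2.12 and 3.60 CPM in scrambled replicates 1, 3, 4 and 5. Its 3 lowest values were those of scrambled replicates 3 and 4 and circNrxn3 siRNA replicate 3, and its log2 fold change of 0.48 depended on single libraries. It was 0.20 without circNrxn3 siRNA replicate 2. Leaving out scrambled replicate 4 gave 0.26, and leaving out scrambled replicate 1 gave 0.88. With the 3 libraries lowest in long transcripts left out it was 0.29.

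These 3 libraries were also the 3 lowest for the long Med13 and Med13l and for Med17, whose model of 1737 bp is not long. They were the 3 highest for the short Med7, Med30 and Med31. Of the 8 members of at least 4000 bp, 7 were on average lower in them than in the other 5 libraries, with a median log2 difference of −0.27, whereas 11 of the 13 members under 1400 bp were higher, with a median of 0.15. These libraries were picked for a low ratio of long to short genes over all other genes. Long genes at large were thus low in them relative to short genes, and the counts do not set Mediator apart. Between the siRNA groups, 6 of the 8 long members lay above 0 and 10 of the 13 short members below 0, with median log2 fold changes of 0.12 and −0.06. The centred ratio over all other genes leaned the same way, at 0.07 ± 0.13 in circNrxn3 siRNA and −0.08 ± 0.12 in scrambled libraries (SD, n = 4 each). Whether the members differ from other genes of such length was not tested. For the members, Med22 left out, the centred log2 mean of long members minus that of short members was taken in the same way. It was 0.34, 0.38, −0.32 and −0.05 in circNrxn3 siRNA replicates 1 to 4, against 0.31, −0.26, −0.39 and −0.02 in scrambled replicates 1, 3, 4 and 5. The groups overlapped. After correction of each library for transcript length, Med25, Med16 and Ccnc had −0.32, −0.29 and 0.15, and 0 members were called. Without the 3 libraries, Med17 and Med13 had −0.029 and −0.0090 in place of 0.23 and 0.11, whereas Cdk19 and Ccnc had 0.14 and 0.28 in place of 0.11 and 0.22. The part of transcript length in the differences between the groups was not tested beyond these fits.

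**Figure D4:**
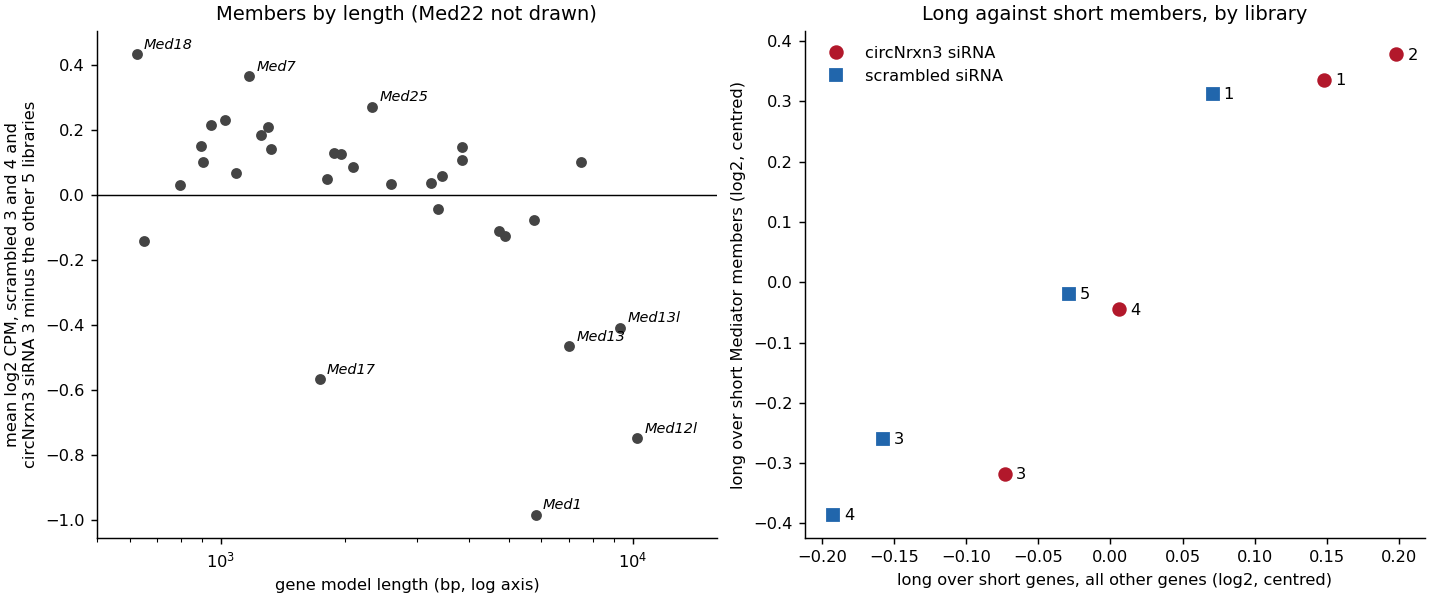
Left, mean log2 CPM in scrambled replicates 3 and 4 and circNrxn3 siRNA replicate 3 minus the mean of the other 5 libraries, for each member but Med22 by gene model length (log axis). Right, the log2 ratio of long to short members in each library against the same ratio over all other genes, with replicate numbers beside the points: the 3 named libraries sit lowest on both axes.

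Med12l also lies across genes of microglia on the other strand. P2ry12, a purinergic receptor of microglia inside the Med12l model, was at 13.5, 14.2, 11.8 and 8.57 CPM in circNrxn3 siRNA replicates 1 to 4, against 12.8, 4.32, 4.47 and 12.6 CPM in scrambled replicates 1, 3, 4 and 5. Med12l was at 5.11, 5.09, 2.09 and 4.29 CPM in circNrxn3 siRNA libraries, against 5.65, 4.53, 2.83 and 5.10 CPM in scrambled libraries. The groups overlapped for both genes. The sources used here do not give whether counting used the strand, so reads of the pair may not be told apart.

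The machinery that Mediator acts on held no gene that passed the test either. Of RNA polymerase II subunits 11 of 13 symbols were found in 12 models, and 0 of the 10 models tested passed, with a median log2 fold change of −0.09 and 4 above 0. Polr2e, a subunit shared by all 3 nuclear polymerases, had −0.17 (SE 0.11), and Polr2a, the catalytic subunit, 0.10 (SE 0.06). Of 18 general transcription factor genes, 0 passed, with a median of 0.01 and 10 above 0. Among them Gtf2h5 and Gtf2h1, both subunits of TFIIH, had −0.20 and 0.21 with standard errors of 0.08 and 0.09. Of TFIID subunits 11 of 15 symbols were found and 0 passed, with a median of −0.03 and 4 above 0. Taf10 had −0.21 (SE 0.11), and Taf9 0.76 (SE 0.49) at under 1 CPM. Of 20 factors that hold or release paused polymerase, 19 were tested and 0 passed, with a median of 0.0081 and 10 above 0. Eaf1, of the super elongation complex, had 0.29 (SE 0.14), and Nelfe, of the negative elongation factor, −0.18 (SE 0.09).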

How the data were processed

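Counts as deposited by the authors were whole-number reads per gene with no normalization, and FPKM values for the same genes were also deposited by the authors. Build rn6 and the tools featureCounts 1.5.0-p3, StringTie 1.3.3b, HISAT2 2.0.5 and fastp come from the submitters' processing notes, which give no roles here. Columns were matched to samples by title. Counts were fitted with edgeR 4.0.16 in R 4.3.3 (filterByExpr with a minimum count of 10, TMM, robust quasi-likelihood F test, 2-sided, Benjamini-Hochberg, threshold 0.05), with no covariates. Standard errors were taken from the log2 fold change and its F statistic. CPM use the TMM-scaled library totals. The fit was tested on simulated counts. Alternatives used DESeq2 1.42.0, limma 3.58.1, other scalings and filters, FPKM, left-out libraries, a replicate block and a length-trend offset. Libraries of a group differed by more than counting noise (chi-square over degrees of freedom, 23.2 to 47.4), so none was counted as a duplicate. The labels call the samples biological replicates. Named were all members, the 3 smallest p in each direction, the paralog pairs, the 3 highest and lowest by FPKM, and 2 genes per machinery list; overlapping and neighbouring genes were chosen after their values were seen. Members and lists were chosen with earlier results of these data known. 1 gene of the neuron marker list is not reported here and was left out of its sum.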

Additional observations from a re-analysis of the deposited data

Results flagged for a closer look

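In 86 groups of 4 libraries, covering members, Med22 neighbours and paralog ratios, the gap between an extreme library and its nearest neighbour was compared with the group's range. Chance flags about 1 in 20 such groups, and 7 stood out. Among members, Med21 was at 22.6 CPM in circNrxn3 siRNA replicate 3, where the other 3 circNrxn3 siRNA libraries were at 19.0 to 19.2 CPM. Med22 was at 0.662 CPM in circNrxn3 siRNA replicate 4, with the others at 0.326 to 0.378 CPM. Med18 was at 12.6 CPM in scrambled replicate 3, with the other scrambled libraries at 6.87 to 7.66 CPM. Beside Med22, LOC100912042 was at 18.4 CPM in circNrxn3 siRNA replicate 4, with the others at 0.900 to 1.89 CPM. The second Rpl7a model was at 45.2 CPM in scrambled replicate 4, with the others at 8.16 to 9.62 CPM. The log2 ratio of Med12l to Med12 was −3.53 in circNrxn3 siRNA replicate 3, with the others at −2.21 to −2.09. That of Cdk19 to Cdk8 was 1.27 in scrambled replicate 3, with the others at 1.43 to 1.45. The 2 ratio values and those of Med21, Med18 and the second Rpl7a model, 5 of the 7, come from the 3 libraries lowest in long transcripts, and the part of transcript length in them was not tested.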

How the results depend on the processing

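Of 23 alternatives, 22 called 0 members; leaving out the 3 libraries lowest in long transcripts called 1, Med22, and 3 of all genes. DESeq2 called 18 of all genes, and leaving out 1 library called 0 to 1. The members' median ran from −0.06 to 0.0037 when 1 library was left out and from −0.03 to 0.01 otherwise, so its sign is not settled. The RNA polymerase II median was 0.016 without the 3 libraries, and that of pause and release factors −0.061 with the length trend removed. A filter of 1 CPM in 4 libraries dropped Med22. DESeq2 gave no adjusted p for 26 of the 33 members, so its count of 0 members rests on the other 7. Direction held in every alternative that tested them for 17 members, among them Med22, Med25, Med16, Ccnc, Med13l and Med1. Leaving out libraries could hardly reverse Med22, Med16 and Ccnc, because their groups did not overlap. When 1 library was left out, these crossed 0: Med24 (−0.041 to 0.048), Med10 (−0.12 to 0.0088), Med19 (−0.033 to 0.13), Med29 (−0.10 to 0.10), Med12 (−0.097 to 0.028), Med21 (−0.044 to 0.053), Med6 (−0.11 to 0.0037), Med26 (−0.058 to 0.015), Med7 (−0.15 to 0.032), Med18 (−0.12 to 0.27), Med12l (−0.30 to 0.086) and the ratio of Med12l to Med12 (−0.29 to 0.21). Without the 3 libraries, Med15 was at 0.0034, Med24 0.018, Med10 0.0022, Med29 0.066, Med27 0.0040, Med30 0.048, Med21 −0.085, Med26 0.066, Med7 0.11, Med17 −0.029 and Med13 −0.0090. With upper-quartile scaling Med24 was at 0.0024 and Med29 at 0.0017, and with the length trend removed Med29 at 0.0081. The cause of these changes was not tested.

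Numbers 1, 3 and 4 occur in both groups, and the labels do not say whether they pair animals. Correlations were taken on what was left of log2 CPM after each gene's group mean was subtracted, not on whole profiles. On this measure same-numbered libraries correlated at 0.37, 0.30 and 0.09, and libraries of different numbers from opposite groups at −0.44 to 0.28. Whether they are pairs is not settled, and the main fit did not pair them. In those 6 libraries the replicate block called 0 genes and gave a members' median of 0.01, with Med10 at 0.013, Med29 at 0.096 and Med6 at 0.029. Without the block these 3 members were at 0.0082, 0.082 and 0.031. The edgeR adjusted p of Med25 and Med16 was 0.146 and 0.202 with the block, and 0.9999 for both without it. Of these libraries, all but scrambled replicate 4 correlated best with their own number. Counts of 10 to 21 per library, as for Med22 in circNrxn3 siRNA, limit precision.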
